A study of Mus musculus with 4 samples.

Results

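Cytoplasmic ribosomal protein genes were examined for methylated Pontin peaks in mouse embryonic fibroblasts (MEFs) under glucose starvation. The genes were taken by their symbols from the protein-coding genes of the GENCODE vM21 annotation. A symbol had to start with Rpl or Rps and a digit or p and a digit, or be Rpsa, and S6 kinases and pseudogenes were left out. This gave 86 of 21951 protein-coding genes, of which 52 have large subunit symbols (Rpl) and 34 small subunit symbols (Rps). The symbol rule also took in 9 genes that are paralogs or only near-named (Rpl3l, Rpl7l1, Rpl10l, Rpl22l1, Rpl36al, Rpl39l, Rps27l, Rps27rt and Rps19bp1), and counts without them are given as well. Rps19bp1 encodes a binding partner of the protein of Rps19 and is not itself a ribosomal subunit.

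The series is a chromatin immunoprecipitation and sequencing (ChIP-seq) experiment in WT MEFs. It comprised 4 libraries, a ChIP with a mePontin antibody, which recognizes Pontin methylated at arginines, and an input, each in normal media and in glucose starvation media. Each condition had 1 library and no replicate. The values analysed here are peaks called in the ChIP of starved cells, so no value compares starved with fed cells, and intervals cover counting error only.

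Ribosomal proteins and ribosomal RNA together form the large and the small subunit of the ribosome, and their genes are among the most strongly transcribed genes of growing cells. Their mRNAs typically begin with a cytosine and a run of pyrimidines, the 5′ terminal oligopyrimidine (TOP) motif, through which translation is held back by LARP1 when mTORC1 is inactive, as in nutrient shortage. Pontin (Ruvbl1) is an AAA+ ATPase that works with Reptin in the TIP60 and INO80 chromatin complexes. Both proteins also assist the assembly of box C/D small nucleolar ribonucleoproteins, which modify ribosomal RNA.

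The start sites of ribosomal protein genes differed in sequence, and TOP starts occurred both in genes with a peak and in genes without one. Of the windows shown, the first 5 belong to the genes with the highest peaks among those with an annotated TOP start, and the last 4 to genes of Diamond-Blackfan anaemia with a TOP start and no peak. Each window runs from 30 bases before to 20 bases from the annotated transcription start site (TSS) of the gene that has the longest run. Sequences are 5′ to 3′ along the gene, from the GRCm38 (mm10) assembly. Capitals mark the run of pyrimidines that begins with the C at the start site.
Rpl30 (chr15:34443203-34443252, minus strand): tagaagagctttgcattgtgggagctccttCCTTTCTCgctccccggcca
Rpl34 (chr3:130730328-130730377, minus strand): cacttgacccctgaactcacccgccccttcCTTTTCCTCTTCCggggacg
Rpl9 (chr5:65391379-65391428, minus strand): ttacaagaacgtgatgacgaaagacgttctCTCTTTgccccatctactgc
Rpl4 (chr9:64173345-64173394, plus strand): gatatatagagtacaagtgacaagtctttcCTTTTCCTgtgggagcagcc
Rpl37 (chr15:5116615-5116664, plus strand): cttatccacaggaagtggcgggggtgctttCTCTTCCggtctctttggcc
Rpl5 (chr5:107900542-107900591, plus strand): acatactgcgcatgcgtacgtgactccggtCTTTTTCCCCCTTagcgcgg
Rps10 (chr17:27635225-27635274, minus strand): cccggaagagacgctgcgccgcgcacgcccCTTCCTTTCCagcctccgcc
Rps19 (chr7:24884603-24884652, plus strand): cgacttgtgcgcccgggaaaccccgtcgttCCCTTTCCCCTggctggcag
Rps24 (chr14:24490688-24490737, plus strand): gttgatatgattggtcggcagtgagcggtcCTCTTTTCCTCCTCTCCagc
The run was 6 to 13 bases long in the 5 genes with a peak shown and 10 to 17 bases long in the 4 genes without one shown. These groups were chosen by unlike rules, so the ranges do not compare genes with and without a peak in general.

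The 7 bases CCGGAAG, the core of sites bound by ETS factors such as GABP, were found in 12 of 46 ribosomal protein gene peaks, and 9 of these sites are shown here. Each line gives the match nearest the centre of the peak with 10 bases on either side, along the strand that reads CCGGAAG, and capitals mark the match. The coordinates are of the GRCm38 assembly.
Rpl11 (chr4:136053097-136053123, minus strand): ctgggggctgCCGGAAGtgcgagcgcg
Rpl26 (chr11:68901560-68901586, plus strand): acttacagaaCCGGAAGtcgcgtgtag
Rpl29 (chr9:106429530-106429556, minus strand): gcgccggagaCCGGAAGagaaagagaa
Rpl30 (chr15:34442988-34443014, minus strand): ccgatcgggcCCGGAAGccggttcacg
Rpl32 (chr6:115808804-115808830, minus strand): ggacccagagCCGGAAGtgcttccctt
Rpl37 (chr15:5116637-5116663, minus strand): gccaaagagaCCGGAAGagaaagcacc
Rpl39 (chrX:37085183-37085209, plus strand): aaggccgggaCCGGAAGaacgcgatta
Rps2 (chr17:24719926-24719952, minus strand): cctacaccagCCGGAAGgacgtataaa
Rps25 (chr9:44407631-44407657, plus strand): acccattgccCCGGAAGtactctctcg
The Rpl37 match lay within the start window shown above, on the opposite strand and overlapping its run of pyrimidines. The 7 bases GTAAACA, the core of FOXO3a sites, occurred in 1 of the 46 peaks, that of Rplp1. FOXO3a is the transcription factor with which the study connected methylated Pontin. In the study's motif analysis of its methylated Pontin ChIP-seq data, FOXO3a response elements were the most significant. That analysis was not limited to these 46 peaks and is a different measure from an exact match of 7 bases. The Rplp1 site is shown in the same way.
Rplp1 (chr9:61915122-61915148, plus strand): acacataaaaGTAAACActctttaaag

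Some peaks lay upstream of the start site and outside annotated exons. The central 200 bases of 3 of these are shown along the gene, those of Rpl3, Rplp1 and Rpl23. Capitals mark any of the 7 motifs searched in all peaks, which are described with their shares further on.
Rpl3 (chr15:80083718-80083917, minus strand): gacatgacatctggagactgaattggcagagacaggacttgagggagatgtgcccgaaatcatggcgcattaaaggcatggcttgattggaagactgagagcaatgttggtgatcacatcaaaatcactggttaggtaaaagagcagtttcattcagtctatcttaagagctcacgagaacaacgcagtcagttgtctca
Rplp1 (chr9:61915164-61915363, minus strand): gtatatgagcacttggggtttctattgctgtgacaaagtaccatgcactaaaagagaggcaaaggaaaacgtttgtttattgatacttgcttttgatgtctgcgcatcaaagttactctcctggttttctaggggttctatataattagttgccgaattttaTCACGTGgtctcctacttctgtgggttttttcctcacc
Rpl23 (chr11:97782667-97782866, minus strand): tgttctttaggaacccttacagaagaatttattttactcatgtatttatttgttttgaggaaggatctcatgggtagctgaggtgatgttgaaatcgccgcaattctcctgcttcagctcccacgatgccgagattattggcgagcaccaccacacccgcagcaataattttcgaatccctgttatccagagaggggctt
In these windows, only that of Rplp1 held a motif, TCACGTG, an E-box that TFEB can bind. The GC content of the 3 windows was 45% at Rpl3, 40% at Rplp1 and 44.5% at Rpl23.

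A peak centre lay within 2.5 kb of an annotated TSS in 46 of the 86 ribosomal protein genes (53.5%, 95% Wilson interval 43.0 to 63.7), against 17.1% of all protein-coding genes (3747 of 21951). The large subunit had 31 genes with a peak of 52 (59.6%, 46.1 to 71.8) and the small subunit 15 of 34 (44.1%, 28.9 to 60.5). The intervals of the subunits overlap, and with 1 library no test of the difference was made. Without paralogs and near-named genes, 42 of 77 genes had a peak (54.5%), 29 of 46 in the large subunit (63.0%) and 13 of 31 in the small subunit (41.9%). Of the 9 paralogs and near-named genes, Rpl7l1, Rpl36al, Rps27l and Rps19bp1 had a peak. Rpl3l, the heart and muscle paralog of Rpl3, Rpl10l, the testis paralog of Rpl10, Rpl22l1, Rpl39l and Rps27rt had none. No peak was shared by members, so the 46 genes stand for 46 peaks.

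In other protein-coding genes the share with a peak rose with GC content, from 2.67% below 45% GC to 25.7% between 60 and 65% GC, and was 23.7% above that, so the share of ribosomal protein genes was also read against other protein-coding genes with promoters of like GC content. GC content was taken over 500 bases on either side of the most upstream TSS, and its median was 56.6% in ribosomal protein genes and 54.8% in other protein-coding genes. When each ribosomal protein gene was set beside other genes of its GC class, of 2 percentage points in width, 21% of the like genes had a peak. The value was 21.1% for genes like the large subunit and 20.9% for genes like the small subunit. In the class of 45 to 50% GC, 4 of 10 ribosomal protein genes had a peak (40%) against 9.79% of other genes. A peak could lie at another TSS than the one that set the GC class. In these 4 genes, GC content by class and in the peak was 45.6 and 71.5% at Rpl17 and 49.7 and 57.4% at Rps2. It was 47.6 and 44.9% at Rpl4 and 49.6 and 43.5% at Rpl10. With only the most upstream TSS counted, 51.2% of all ribosomal protein genes and 19.7% of like genes had a peak. In the class of 50 to 55% GC it was 9 of 19 (47.4%) against 17.5%. The largest class, 55 to 60% GC, had 25 of 42 (59.5%) against 23.4%. Between 60 and 65% GC, 7 of 14 had a peak (50%) against 25.7%. The share in ribosomal protein genes was above that of other genes in each of these 4 classes, while the GC content of ribosomal protein genes with a peak (median 56.6%) was close to that of those without one (56.7%). The 1 member above 65% GC, Rpl36al, had a peak.

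**Figure D1:**
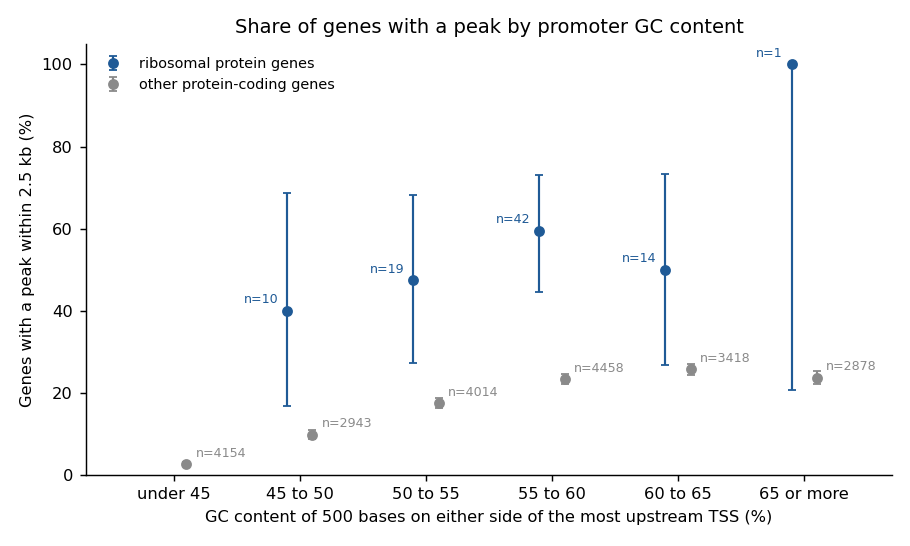
Share of genes with a peak centre within 2.5 kb of a start site (y axis, %) in classes of promoter GC content (x axis, %), for ribosomal protein genes and other protein-coding genes, with 95% Wilson intervals and the number of genes. In the 4 classes with 10 or more ribosomal protein genes their share was 40 to 59.5%, against 9.79 to 25.7% of other genes.

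A gene with more annotated start sites has more places where a peak can count, and ribosomal protein genes had a median of 6 TSSs against 3 in other genes. Among genes with 4 to 6 TSSs, 20 of 31 ribosomal protein genes had a peak (64.5%) against 22.1% of other genes. Among genes with 7 or more, it was 16 of 29 (55.2%) against 29.8%. Among genes with 2 or 3, it was 9 of 21 (42.9%) against 12%, and among genes with a single TSS 1 of 5 (20%) against 6.16%. When like genes had to match in both GC class and number of TSSs, 23.4% of them had a peak, against the 53.5% of ribosomal protein genes.

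**Figure D2:**
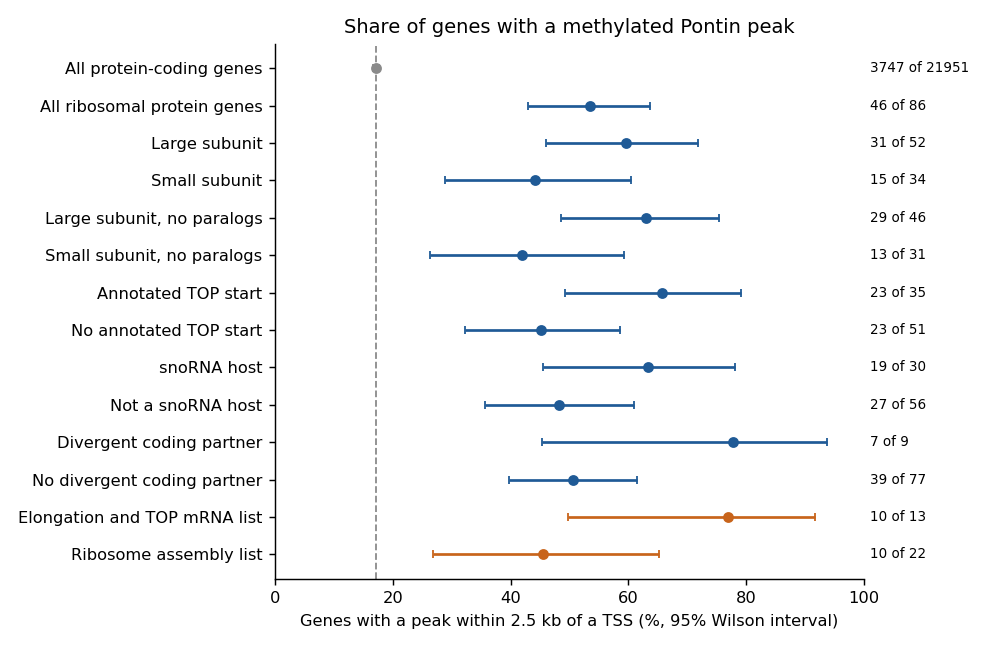
Share of genes with a peak centre within 2.5 kb of a start site (x axis, %), with 95% Wilson intervals and the counts at the right, for all protein-coding genes (grey), ribosomal protein genes and their subsets (blue) and pathway lists (orange). The dashed line is the 17.1% of all protein-coding genes, and the interval of every group of ribosomal protein genes shown lies above it.

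Peak height was measured as tags per 10000000 tags of the library. Over the 46 ribosomal protein gene peaks its median was 16.2 (quartiles 13.7 to 18.7, range 8.91 to 27.4), which equals 33.7 tags in the library. Peaks at other protein-coding promoters had a median of 14.9 (12.5 to 17.8, 3115 peaks), and 28 of the 46 lay above it. Large subunit peaks had a median of 17.8 (13.8 to 20.2) and small subunit peaks 15.4 (11.6 to 17.0). In the large subunit 15 of 31 peaks were above the upper quartile of other promoter peaks, and in the small subunit 2 of 15. At this depth single peaks carried wide counting errors, since the 95% Poisson interval lay wholly above the median of other promoter peaks in 5 of 46 peaks, all in the large subunit, and wholly below it in 1.

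The 12 highest peaks were all at large subunit genes. Rpl17 had 27.4 tags per 10000000 (95% Poisson interval 20.7 to 35.5), with the centre in an intron of the gene 207 bp downstream of a TSS. Rpl3, whose protein lies near the peptidyl transferase centre, had 27.2 (20.6 to 35.3) at chr15:80083578-80084058, and this peak was centred in an intron 412 bp upstream of the nearest TSS. Rpl30 had 24.3 (18.1 to 32) at chr15:34442609-34443089, centred in an annotated UTR exon 59 bp downstream of a TSS. These 3 genes overlap in their intervals and cannot be ordered. Rpl34 had 22.2 tags per 10000000 (16.3 to 29.6), with the peak 530 bp upstream at chr3:130730688-130731168. Rpl9 had 21.7 (15.8 to 29.0), with the peak 184 bp upstream of its TSS and 308 bp from that of Lias, a lipoic acid synthase gene on the other strand. These 5 genes are those whose intervals lay above the 14.9 of other promoter peaks. The next 7 had tag counts of 20.5 (Rpl4), 20.2 (Rpl27, Rpl37 and Rpl7l1), 19.5 (Rpl23), 19.0 (Rpl14) and 18.8 (Rpl6).

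Small subunit peaks reached at most 18.5 tags per 10000000, the value of Rps25 (13.1 to 25.3). The Rps25 peak lay 111 bp upstream of a TSS of Rps25 and 51 bp from that of Trappc4, and its centre lay in a UTR exon of Rps25 and also within Trappc4. Among the 5 lowest peaks were those of the X-linked Rpl36a (8.91, 5.32 to 14.0), Rpl39 (10.1, 6.25 to 15.4) and Rpl10 (10.4, 6.49 to 15.8). Rpl36a was the gene whose interval lay below 14.9. Rpl7 was also among the 5 lowest (10.6, 6.64 to 16.0).

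**Figure D3:**
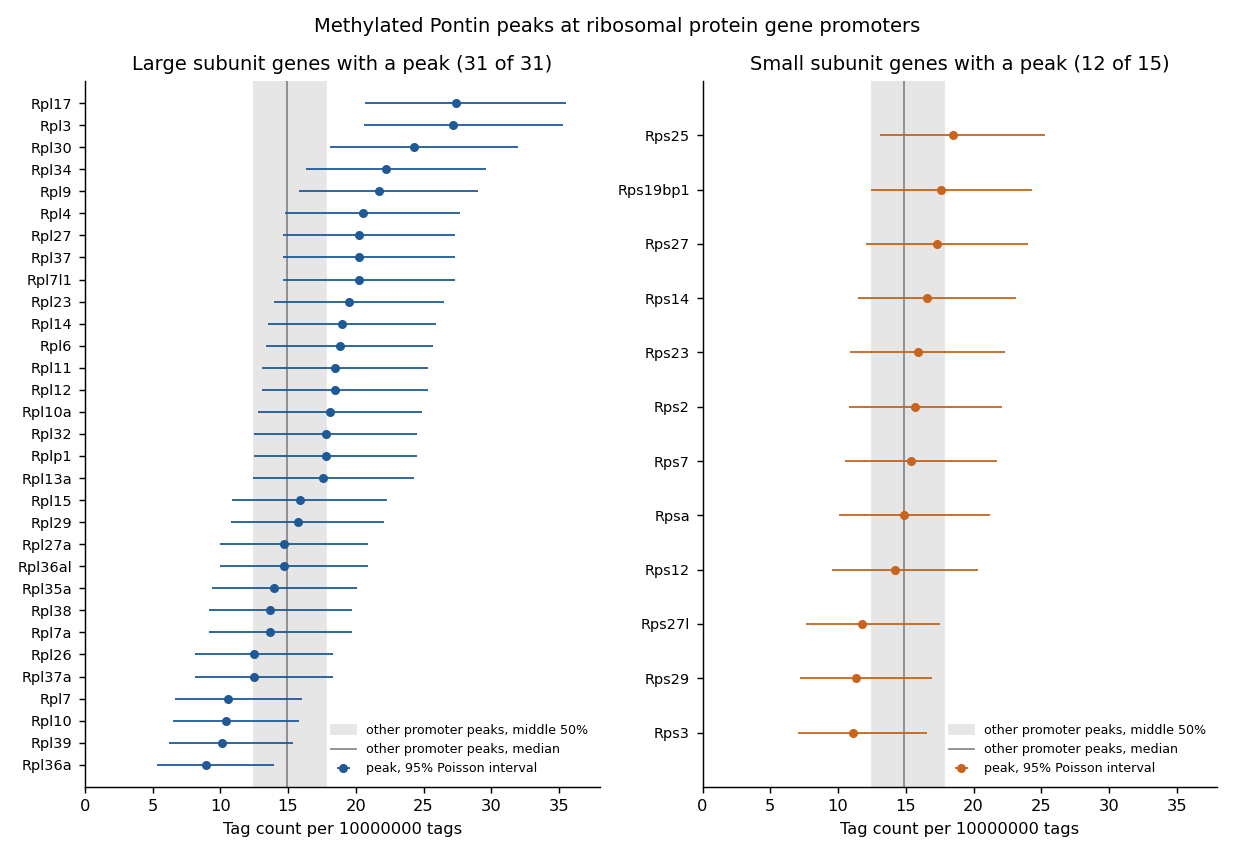
Tag count per 10000000 tags (x axis) of all 31 large subunit (left) and 12 of 15 small subunit (right) genes with a peak, each point with its 95% Poisson interval, beside the median (line) and the middle 50% (grey band) of other protein-coding promoter peaks. Large subunit peaks ran from 8.91 to 27.4 and the small subunit peaks drawn from 11.1 to 18.5.

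The X-linked ribosomal protein genes are few. Of these 4 genes, 3 had a peak (Rpl10, Rpl36a and Rpl39, 95% Wilson interval 30.1 to 95.4%), against 43 of 82 autosomal ribosomal protein genes (52.4%) and 31 of 944 other protein-coding genes on the X chromosome (3.28%). Rps4x had none, with the nearest peak at 548 kb. The median tag count of the 3 X-linked peaks was 10.1, against 17.3 in the 43 autosomal ones. The median over all peaks of the list on the X chromosome was likewise 10.4 (43 peaks), against 14.4 over 4268 autosomal peaks.

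Fold over input is the deposited ratio of the peak to an input library after scaling. The methods name a control input, and the list does not say which of the 2 inputs of the series this was. Peaks under 4-fold are not in the list. Its median was 8.80 over ribosomal protein gene peaks (range 4.05 to 48.0) and 9.10 over other promoter peaks. It was 8.0 in the large and 10.1 in the small subunit, so the subunit with the higher tag counts had the lower median fold. At least 8-fold enrichment was reached by 17 of 31 large subunit peaks and 10 of 15 small subunit peaks. Peaks over 20-fold included those of Rpl7 (27.41) and Rps23 (20.56). Rpl7 was among the 5 lowest peaks by tag count, whereas Rpl30, the third highest by tag count, was 7.87-fold over input. Low folds included 4.05 at Rpl37a, 4.25 at Rpl10a and 4.36 at Rpl37, close to the limit of the list. Over the surrounding 10 kb the median fold was 5.14, against 5.02 for other promoter peaks.

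Peaks at ribosomal protein genes lay close to the start site. The median distance of the centre from the nearest TSS of the gene was 186 bp, against 269 bp in other genes with a peak, with 207 bp in the large and 147 bp in the small subunit. The centre was within 250 bp in 28 of 46 genes (60.9%, other genes 47.0%), within 500 bp in 40 (87.0%, other genes 78.6%) and within 1 kb in 45 (97.8%, other genes 94.7%). It was upstream of the TSS in 22 genes and downstream in 24 (47.8% upstream, other genes 55.2%). Among genes with a peak, ribosomal protein genes had a median of 6 annotated TSSs and a length of 3.27 kb. Other genes had 5 TSSs and 24.9 kb, and distances were not matched for these features. By annotation, 11 centres lay in a UTR exon of the gene, 2 in a coding exon (Rpl12 and Rpl27), 6 in an exon of a non-coding transcript, 12 in an intron and 15 outside the gene.

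**Figure D4:**
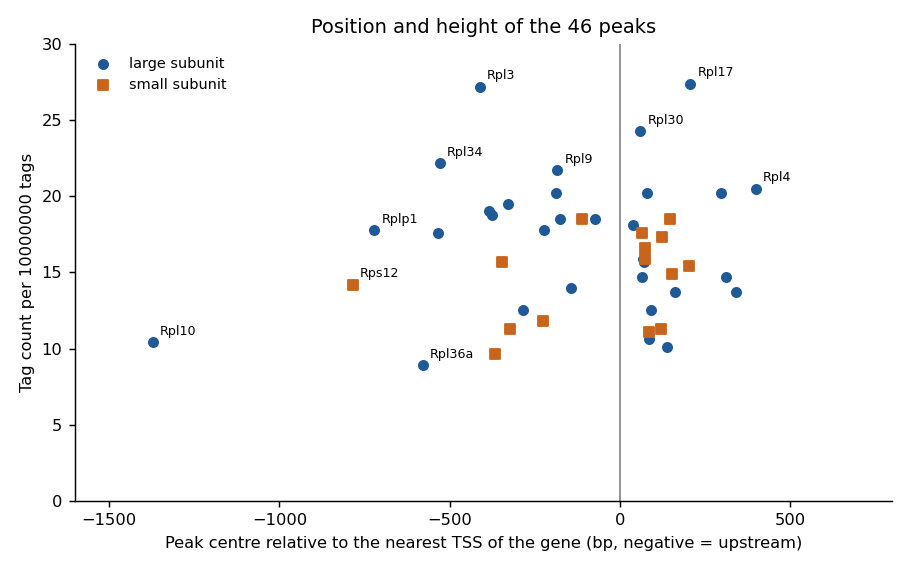
Tag count per 10000000 tags (y axis) against the position of the peak centre relative to the nearest TSS of the gene (x axis, bp, upstream negative), for large subunit (circles) and small subunit (squares) genes. Of the 46 centres, 40 lay within 500 bp and the farthest was Rpl10 at 1372 bp upstream.

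The farthest peak inside the limit of 2.5 kb was that of Rpl10, 1372 bp upstream, and the nearest one outside was 3.26 kb from Rpl3l, with those of Rpl19 (3.97 kb), Rpl23a (4.95 kb) and Rplp0 (5.39 kb) farther out. No member thus had a nearest peak between 1372 bp and 3.26 kb. The median distance over the 40 genes without a peak was 56.8 kb, 15 of them had none within 100 kb, and the median over other protein-coding genes without a peak was 134 kb.

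Genes with defined roles were found both with and without a peak. Of the stalk proteins, which recruit translation factors to the large subunit, Rplp1 had a peak (17.8 tags per 10000000, 722 bp upstream), while for Rplp0 and Rplp2 the nearest peak was at 5.39 kb and 55.4 kb. Rpsa, which encodes the laminin receptor protein of the small subunit, had a peak (14.9, 154 bp downstream). Rps6, whose protein is phosphorylated by S6 kinase, had its nearest peak at 145 kb, and Rps27a, which encodes a fusion of ubiquitin with a ribosomal protein, at 20.2 kb. The proteins of Rpl5 and Rpl11 bind MDM2 when ribosome assembly is disturbed, and Rpl11 had a peak (18.5, 73 bp upstream) whereas the peak nearest to Rpl5 was at 151 kb. Of 10 genes mutated in Diamond-Blackfan anaemia, an anaemia of defective ribosome production, 5 had a peak (50%, 23.7 to 76.3), close to the 53.5% of all ribosomal protein genes. These included Rps7 (15.4), Rpl11, Rpl26 (12.5) and Rpl35a (14.0), and those without were Rps10, Rps19, Rps24, Rps26 and Rpl5.

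The remaining large subunit genes with a peak were Rpl10a, Rpl12, Rpl13a, Rpl15, Rpl27a, Rpl29, Rpl32, Rpl36al, Rpl37a, Rpl38 and Rpl7a, with tag counts of 12.5 to 18.5. Further small subunit genes with a peak included Rps2, Rps3, Rps12, Rps14, Rps19bp1, Rps23, Rps27, Rps27l and Rps29, with tag counts of 11.1 to 17.6. Further large subunit genes without a peak included Rpl8, Rpl13, Rpl18, Rpl21, Rpl22, Rpl24, Rpl28, Rpl31, Rpl35, Rpl36 and Rpl41. Further small subunit genes without a peak included Rps3a1, Rps9, Rps13, Rps15, Rps15a, Rps16, Rps18, Rps20, Rps21 and Rps28.

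Several peaks lay near the start site of another gene. The nearest TSS of any annotated gene was that of the ribosomal protein gene in 40 of 46 peaks and that of another gene in 6, which included those at Rpl34 (Gm42997), Rps25 (Trappc4), Rps2 (Snora78), Rpl35a (Iqcg) and Rpl7a (Gm23969). Of the genes named in brackets, Snora78 and Gm23969 are annotated as small nucleolar RNA genes and Gm42997 as a non-coding RNA gene. The TSS of another protein-coding gene was within 2.5 kb in 13 peaks, and in 33 there was none. A divergent partner was a protein-coding gene on the other strand with its most upstream TSS at most 1 kb upstream of the gene's own. Genes whose starts overlap were not counted as partners, so Rps25, with a TSS of Trappc4 51 bp from its peak, has none here. By this count 9 ribosomal protein genes had a partner (10.5%, other genes 6.78%). Of these 9, 7 had a peak (77.8%), against 39 of the other 77 (50.6%). In other protein-coding genes the shares were 36.0% with and 15.5% without such a partner. Peaks at promoters with a partner cannot be assigned to a gene.

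Genes that host small nucleolar RNAs (snoRNAs), which guide modification of ribosomal RNA, made up 30 of the 86 ribosomal protein genes (34.9%), against 1.05% of other protein-coding genes. Of these hosts 19 had a peak (63.3%), against 27 of 56 non-hosts (48.2%). Other protein-coding hosts had a peak in 31.4% and other non-hosts in 16.8%. Hosts of several snoRNAs included Rpl4 with 5 and Rpl13a with 4, and both had a peak. Among hosts of 3, Rpl17 and Rpsa had a peak, while Rpl5 and Rpl23a had none.

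A TOP start, taken as a C at an annotated TSS followed by at least 4 pyrimidines, was found in 35 ribosomal protein genes (40.7%), against 8.39% of other protein-coding genes. The share was 18 of 52 in the large subunit (34.6%) and 17 of 34 in the small subunit (50%). Of the 35 genes, 23 had a peak (65.7%, 49.2 to 79.2), against 23 of the 51 without an annotated TOP start (45.1%, 32.3 to 58.6). These intervals overlap. In other protein-coding genes the shares were 23.1% and 16.4%. Annotated starts are not measured starts, and genes with a TOP start had a median of 7 TSSs against 4 in those without.

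Motifs of 7 bases were searched on both strands, in the 300 bases from 250 before to 50 after the most upstream TSS and in the whole peak. CCGGAAG (ETS) was in 23 of 86 ribosomal protein gene promoters (26.7%) against 10.8% of all protein-coding promoters, with 26.1% in those with a peak and 27.5% in those without one. In whole peaks it was in 26.1% of ribosomal protein gene peaks and 18.7% of other promoter peaks. AAGATGG (YY1) was in 12.8% of promoters against 6.22% of all, and in 26.1% of peaks against 11.9% of other promoter peaks. GGGCGGG (SP1) was in 37.2% of promoters against 31.5%, and in 37.0% of peaks against 33.8%. GCGGGAA (E2F1) was in 10.5% of promoters against 5.72%, and in 17.4% of peaks against 11.3%.

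The motifs of FOXO3a, TFEB and CREB1 were in few of the peaks and likewise in few other promoter peaks. GTAAACA (FOXO3a) was in 1 of 86 promoters (1.16%) against 3.05% of all, and in 1 of 46 peaks (2.17%) against 4.4% of other promoter peaks. TCACGTG (TFEB) was in 4.65% of promoters against 4.14% and in 8.70% of peaks, those of Rpl27a, Rpl30, Rplp1 and Rpsa, against 6.29%. TGACGTC (CREB1) was in 8.14% of promoters against 4.0%, and in 4.35% of peaks against 4.33%. None of the 7 motifs was found in 11 of the 46 peaks. A match is a description of the sequence and not a measured binding site, and GC content was a median of 58.8% in these peaks against 56.5% in other promoter peaks.

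Ribosomal protein genes have many processed copies in the genome, and reads from repeated sequence can be placed at more than 1 site. Of the 46 peaks, 32 held at least 1 stretch of 32 bases that occurs more than once on the chromosomes (69.6%), against 24.1% of all 4311 peaks. No ribosomal protein gene peak was repeated over more than 50% of its stretches, against 51 of all peaks, and the highest values were 37.3% at Rpl6 and 32.9% at Rpl37a. Of 294 Rpl and Rps pseudogenes with -ps in the symbol, 4 had a peak within 2.5 kb (1.36%), those near Rpl29-ps2, Rpl31-ps7, Rpl35a-ps6 and Rpl7a-ps8. Copies with other symbols are not in this count, and no share over all pseudogenes is given beside it.

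Other genes of the translation apparatus were read in the same way. Of 13 translation factor and TOP mRNA genes 10 had a peak (76.9%), with 34.0 tags per 10000000 at Eif4b, 27.0 at Btf3, 25 at Pabpc1, 23.4 at Eef1g, 23.1 at Eef1d, 22.4 at Naca, 20.2 at Eif3e, 17.1 at Eif3h, 14.2 at Eef2 and 10.4 at Eef1b2. Eef1a1, Tpt1 and Eif3f had none. Of 22 genes of ribosome assembly 10 had a peak (45.5%), among them Npm1 (13.2), Ncl (14.9), Nop58 (12.5) and Rrp9 (17.1), while Fbl, Dkc1 and Nop56 had none. Of 4 genes that control translation of TOP mRNAs, Larp1 (15.7) and Rps6kb1 (12.3) had a peak and Eif4ebp1 and Rps6kb2 had none. All of these shares have wide intervals, from 49.7 to 91.8% for the first list of 13 genes and from 26.9 to 65.3% for ribosome assembly.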

How the data were processed

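Peaks of the ChIP of starved cells were analysed. The authors aligned reads to GRCm38 (mm10) with Bowtie2 and called peaks with HOMER 4.7.2, per the labels. The deposited list has 4311 peaks of 481 bp and 20765512 total tags. Its signal is the authors' tag count per 10000000 tags. The deposited score is HOMER's peak score, the fold over input and over the surrounding 10 kb are ratios deposited by the authors, and the p-value beside the fold over input is the authors' Poisson p-value. The authors kept peaks at a false discovery rate of 0.001 (tag threshold 18), at least 4-fold over input and surroundings, and with p at most 0.0001. The list has 2 tag columns that name no library of the series, and these were not used.

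Distances ran from the peak centre to any TSS of GENCODE vM21, limit 2.5 kb. Shares have 95% Wilson intervals and tag counts exact Poisson intervals. No test was made, since 1 library has no replicate. Named with values were the 12 highest and 5 lowest peaks, the genes nearest the limit, genes of set roles and paralogs. Some genes are counted but not reported here singly. The high and low peaks named by fold over input, the coding-exon peaks, the peaks with another gene's TSS nearer, the motif-bearing genes and the hosts of most snoRNAs were chosen after their values were seen. Members, lists and motifs were chosen with earlier results of these data known. RefSeq promoter windows (GRCm38.p6) matched 66 member symbols and 16522 protein-coding symbols. Alternatives covered distance limits, start sites, peak edges, fold and score limits, repeated sequence, paralogs and GC classes. The counting steps were tested on simulated data. Python 3.11.15, NumPy 2.4.6, pandas 2.3.3, SciPy 1.17.1 and matplotlib 3.10.9 were used.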

Additional observations from a re-analysis of the deposited data

How the results depend on the processing

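The share of ribosomal protein genes with a peak ranged from 31.4% to 58.1% over 9 alternatives, that of the large subunit from 32.7% to 65.4% and that of the small subunit from 23.5% to 47.1%. It fell below its interval when fewer peaks counted. With only peaks at least 8-fold over input it was 31.4%, with 32.7% in the large and 29.4% in the small subunit, against 12.1% of genes of like GC content and 9.92% of all protein-coding genes. With only peaks at or above the median score it was 36.0%, with 44.2% in the large and 23.5% in the small subunit, against 12.3% and 10%. The other alternatives left the shares of both subunits within their intervals, and some of them moved the background. Leaving out peaks repeated over more than 50% of their stretches could not change these shares, since no ribosomal protein gene peak passed that limit. Lower limits of repeated sequence were not tested. Genes of like GC content had a share of 20.1% at a limit of 1 kb, 22.4% at 5 kb, 19.7% with the most upstream TSS only, 18.9% with GC content over 300 bases and 23.4% when the number of TSSs was also matched. All protein-coding genes had 16.2% at 1 kb, 18.2% at 5 kb, 15.7% with the most upstream TSS and 16.6% with the TSSs of protein-coding transcripts. The median tag count over the peaks that each of the 9 alternatives kept was 15.9 to 18.5 for both subunits together, 17.8 to 18.8 for the large and 15.2 to 17.0 for the small subunit. CCGGAAG was in 39.4% of the members' RefSeq promoters (all 13.4%), an alternative chosen after seeing the data. In the central 200 bases of the peaks, a shorter window, it was in 8.70% (3.43 to 20.3) against 5.23% of other promoter peaks. In that window AAGATGG was in 6.52% (2.24 to 17.5) against 4.85%. GGGCGGG was there in 19.6% (10.7 to 33.2) against 12.7%, and GCGGGAA in 4.35% (1.2 to 14.5) against 4.82%. No paired analysis was possible because each group has 1 library, and no replicate could be left out. At a median of 33.7 tags a peak, regions under the authors' limits are not in the list, so a gene without a peak is one with no peak detected at this depth.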

Other observations

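The share of ribosomal protein genes with a peak was also counted by TOP start within each subunit, a division chosen after the values were seen. In the large subunit 15 of 18 genes with an annotated TOP start had a peak (83.3%, 95% Wilson interval 60.8 to 94.2), against 16 of 34 without one (47.1%, 31.5 to 63.3). In the small subunit it was 8 of 17 (47.1%, 26.2 to 69) against 7 of 17 (41.2%, 21.6 to 64). The intervals overlap in every pair, and the difference between the subunits was not tested. Large subunit genes with a TOP start had a median of 6 TSSs, against 5 in those without one. Those with a TOP start and no peak included Rpl5 and Rpl36. In the small subunit, where genes with a TOP start had a median of 8 TSSs against 3 in the others, the 9 with a TOP start and no peak were Rps9, Rps10, Rps13, Rps15a, Rps18, Rps19, Rps21, Rps24 and Rps27rt.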
